A study of Drosophila melanogaster with 3 samples.

Results

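The genes described here encode subunits of the 5 complexes of oxidative phosphorylation. They were chosen by symbol among the protein-coding genes of the Ensembl BDGP6 annotation, case-sensitive: symbols that start with ND- (complex I), Sdh (complex II), UQCR- (complex III), COX followed by a digit (complex IV) or ATPsyn (complex V). There were 88 such genes of 13945 protein-coding genes on the 6 arms, with 40 in complex I, 8 in complex II, 9 in complex III, 16 in complex IV and 15 in complex V. The complex II genes include Sdhaf3, which encodes an assembly factor and not a subunit. No measured value entered the choice. Of the 88, 20 are L paralogs, which carry the symbol of another gene of the set followed by L and at most 1 digit, and the other 68 are called main genes below.

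The measurements were sites recovered by chromatin immunoprecipitation and sequencing (ChIP-seq) from Drosophila melanogaster embryos, whole and 0 to 24 hours old. In these transgenic flies the zinc finger protein CG11695 carries eGFP, an enhanced green fluorescent protein, as a tag, and an antibody against GFP pulled down the sonicated chromatin, of which fragments of 200 to 800 bp were selected. What drives the transgene is not given in the sources used here. There were 3 biological replicates in 1 group, and no input, mock precipitation or other condition was analysed here, so no comparison between conditions was possible and sites recovered in any precipitation cannot be told apart from sites of the tagged protein. Embryos of this age range mix stages and tissues, and a summit between a pair of genes does not say which of them, if either, is affected.

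Oxidative phosphorylation takes place in the inner mitochondrial membrane. Complex I (NADH dehydrogenase) and complex II (succinate dehydrogenase, which is also an enzyme of the citrate cycle) pass electrons to ubiquinone, complex III passes them to cytochrome c, and complex IV (cytochrome c oxidase) to oxygen. Complexes I, III and IV pump protons, and complex V (ATP synthase) uses the proton gradient to make ATP. Most subunits are encoded in the nucleus, as are all genes counted here, and several fly subunits have an L paralog, some of which are known for expression in the male germline.

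A gene was counted as having a promoter peak when the summit of a peak lay within 500 bp of any of its transcription start sites (TSSs). The peaks were those of the authors' conservative thresholded list of 4770 peaks, called the main list here, and of each replicate's own thresholded list, with 3404, 2774 and 2716 peaks in replicates 1, 2 and 3. In the main list 9 of the 88 genes had a promoter peak (10.2%), against 16.2% of all protein-coding genes. The 9 were ND-ASHI, ND-MWFE, ND-24, ND-51, ND-42 and ND-23 of complex I, COX5A of complex IV, and ATPsynCF6 and ATPsynE of complex V. No gene of complex II or III had one. By complex the main-list shares were 15% of 40 genes for complex I, 6.25% of 16 for complex IV and 13.3% of 15 for complex V, against 16.2% of all genes. Without L paralogs complex I had 17.6% of 34 genes and complex V 16.7% of 12.

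The own lists held fewer of these genes. A promoter peak stood at 6 of the 88 genes in replicate 1, 7 in replicate 2 and 5 in replicate 3, which is 6.82% ± 1.14 (SD, n = 3). The shares of all protein-coding genes were 12.5% in replicate 1, 10.2% in replicate 2 and 10.7% in replicate 3, so the set was below the background in each replicate. The authors' other series lists gave 10 genes of 88 (11.4%, against 15.3% of all genes) where the ranks of replicates 1 and 2 were compared, 11 (12.5%, against 14.0%) for replicates 2 and 3, and 12 (13.6%, against 19.3%) for the pooled libraries. The peaks and signals of all these series lists come from the pooled libraries, so they differ in which ranks were compared and are not independent. The set as a whole had a lower share than protein-coding genes in general in each of the 7 lists. Complex I by itself did not: promoter peaks stood at 6, 6 and 4 of its 40 genes in the own lists of replicates 1, 2 and 3, or 13.3% ± 2.89 (SD, n = 3), and its share was above that of all genes in replicates 1 and 2. It was also above in the other series lists, with 17.5% for replicates 1 and 2, 17.5% for replicates 2 and 3 and 20% for the pooled libraries. The 15 complex V genes of the set had no peak in any own list. Where replicates 2 and 3 were compared, 3 of these 15 had a promoter peak (20%, against 14.0% of all genes). None of these differences was tested.

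**Figure D1:**
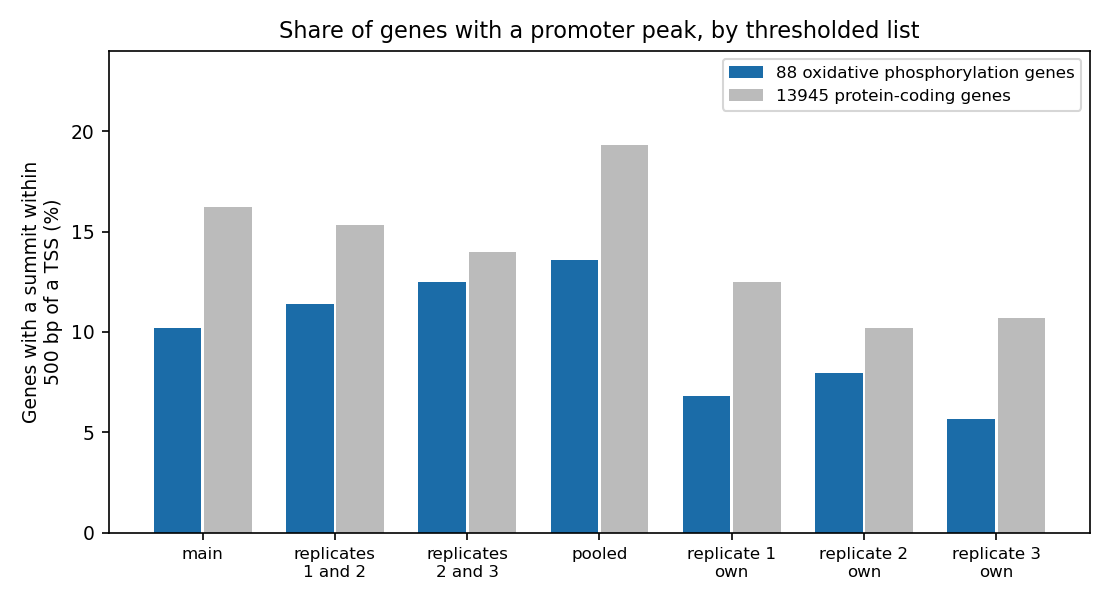
Percentage of genes whose TSS has a summit at 500 bp or less in each of 7 thresholded lists, for the 88 oxidative phosphorylation genes (left bar of each pair) and all 13945 protein-coding genes (right bar); bars have no error because each is 1 list. The left bar is the lower of the pair in every list, from 5.68% in the own list of replicate 3 to 13.6% in the pooled list.

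The genomic sequence at the summits is shown first for 3 of the 4 genes that were in all 7 lists and then for ND-42, whose summit window alone among the 9 held the NRG element, and ND-23, whose window had the lowest GC. Each is read 5′ to 3′ on the gene's own strand from the RefSeq copy of the assembly, reaches at most 60 bases to either side of the main summit and leaves out untranslated regions. Capitals mark the searched words: AAATAT, the TATA box word TATAAA, the E-box of core promoter motif 5 (CAGCTG) and the NRG element (here TTATATAA), on either strand. The coordinates, on dm6, are chrX:6679296-6679416 (minus strand) for ND-ASHI, chrX:17632180-17632244 (plus strand) for ND-24, chr2L:6062783-6062903 (minus strand) for ND-51, chr3R:22027531-22027651 (plus strand) for ND-42 and chr3R:15837172-15837292 (minus strand) for ND-23.
ND-ASHI: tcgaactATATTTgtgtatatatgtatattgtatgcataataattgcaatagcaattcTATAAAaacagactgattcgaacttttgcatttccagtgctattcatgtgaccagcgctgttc
ND-24: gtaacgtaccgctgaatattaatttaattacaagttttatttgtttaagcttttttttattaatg
ND-51: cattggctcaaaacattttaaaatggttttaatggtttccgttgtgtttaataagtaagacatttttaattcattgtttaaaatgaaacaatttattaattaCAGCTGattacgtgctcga
ND-42: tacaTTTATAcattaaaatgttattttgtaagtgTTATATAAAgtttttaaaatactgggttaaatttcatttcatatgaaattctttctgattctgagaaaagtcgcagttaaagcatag
ND-23: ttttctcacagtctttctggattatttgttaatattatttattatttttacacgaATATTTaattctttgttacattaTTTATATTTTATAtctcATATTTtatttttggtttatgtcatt

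Long runs of A and T fill these stretches, and GC made up 17.4% of the ND-23 stretch and 32.2% of the ND-ASHI stretch. ND-24 held none of the searched words within its stretch. In ND-42 the NRG element and a TATA box word share bases, so they are not separate matches.

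Complex I held 6 of the 9 main promoter peaks. Its 4 genes ND-ASHI, ND-MWFE, ND-24 and ND-51 were in all 7 lists. ND-ASHI, an accessory subunit of the membrane arm, had the strongest peak of the set (FBgn0029888, peak chrX:6679262-6679486). Its signal, in the authors' unit, was 395 in the main list, at rank 339 of 4770. In the replicates' own lists its signals were 179, 106 and 106 in replicates 1, 2 and 3, at ranks 253, 473 and 380. These ranks put it in the upper part of every list. ND-MWFE, a small accessory subunit of the membrane arm (FBgn0085468, peak chr2R:13158401-13158585), followed with a main signal of 261 at rank 713. Its own-list signals were 108 in replicate 1, 92.2 in replicate 2 and 63.8 in replicate 3.

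Of the 7 nuclear core subunits of complex I, those conserved from bacteria, 3 had a main peak: ND-24, ND-51 and ND-23. This is 42.9%, against 16.2% of all protein-coding genes. In each own list 2 of the 7 had a peak (28.6%), against 10.2% to 12.5% of all genes. With 7 genes these differences were not tested. ND-24 and ND-51 form the NADH-oxidising end of the enzyme, and ND-23 carries iron-sulphur clusters nearer to ubiquinone. ND-24 (FBgn0030853, peak chrX:17631994-17632373) had a main signal of 181 at rank 1318 and own-list signals of 69.7, 61.0 and 54.9 in replicates 1, 2 and 3. ND-51, which holds the flavin that accepts electrons from NADH (FBgn0031771, peak chr2L:6062653-6063032), had a main signal of 140 at rank 1943 and own-list signals of 54.3, 42.1 and 33.8. Both were called in each replicate. Signals are on a scale that is not stated and are read here within a replicate, not between replicates.

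ND-23 (FBgn0017567, peak chr3R:15837042-15837421) had a main signal of 115 at rank 2522 and was in no replicate's own list. Its strongest record in the ranked lists, which also keep peaks below the threshold, had signals of 48.9, 35.5 and 40.6 in replicates 1, 2 and 3. These placed ND-23 between percentiles 88.7 and 90.7 of protein-coding genes in every replicate. The percentile ranks a gene by its strongest record within 500 bp of a TSS.

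The other 4 core genes had no promoter peak in any of the 7 lists. ND-49, whose product lines the ubiquinone site, had ranked signals of 20.1, 23.1 and 18.7 in replicates 1, 2 and 3. ND-30, a connecting-arm subunit, had 23.4, 24.1 and 12.4. ND-20 and ND-75 each had a record in replicate 1 alone, with signals of 9.33 and 4.97. The core genes therefore ran from percentile 94.0 (ND-24, median of 3 replicates) to 17.3 (ND-20 and ND-75), and the whole list of 7 had a median percentile of 75.2 ± 5.81 (SD, n = 3).

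ND-42, an accessory subunit of complex I with a nucleoside kinase fold (FBgn0019957, peak chr3R:22027401-22027780), had a main signal of 132 at rank 2112. It was in the own lists of replicates 1 and 2, with signals of 42.6 and 42.5, and stood in the ranked list of replicate 3 with 37.4. ND-SGDH, another accessory subunit of the membrane arm, was in the own lists of replicates 1 and 2 with signals of 50.5 and 36.9 and had 26.8 in the ranked list of replicate 3, but was not in the main list. The global irreproducible discovery rate (IDR), the authors' measure of how well ranks repeat, was 0.000445 for ND-SGDH where replicates 1 and 2 were compared, 0.652 for replicates 1 and 3 and 0.640 for replicates 2 and 3. The main list compared replicates 1 and 3. ATPsynE had lower ranked signals there, 49.9 and 25.2, but a global IDR of 0.00275 in that pair and a place in the main list. The strongest record of ND-SGDH lay 109 and 122 bp upstream of a TSS in replicates 1 and 2 and 4 bp inside in replicate 3. Why ND-SGDH fell short was not tested.

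COX5A, a matrix-side subunit of cytochrome c oxidase and the only complex IV gene in the main list, had a main signal of 127 at rank 2225 (FBgn0019624, peak chr3R:11819270-11819649). It had ranked signals of 29.7, 49.0 and 42.5 in replicates 1, 2 and 3, at percentiles 80.9, 92.4 and 91.3, and was in the own lists of replicates 2 and 3. For complex V, ATPsynCF6, a subunit of the peripheral stalk (FBgn0016119, peak chr3R:23356011-23356390), had a main signal of 112 at rank 2627. A weaker record of 22.1 at rank 4512 stood 336 bp upstream of the same TSS, against 137 bp for the stronger. ATPsynE, the membrane subunit e (FBgn0038224, peak chr3R:14326749-14327128), had a main signal of 105 at rank 2822, and its summit was 8 bp upstream of the TSS. Neither was in an own list. ATPsynCF6 had ranked signals of 44.5, 36.5 and 32.5 in replicates 1, 2 and 3, and ATPsynE had 49.9, 25.8 and 25.2.

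**Figure D2:**
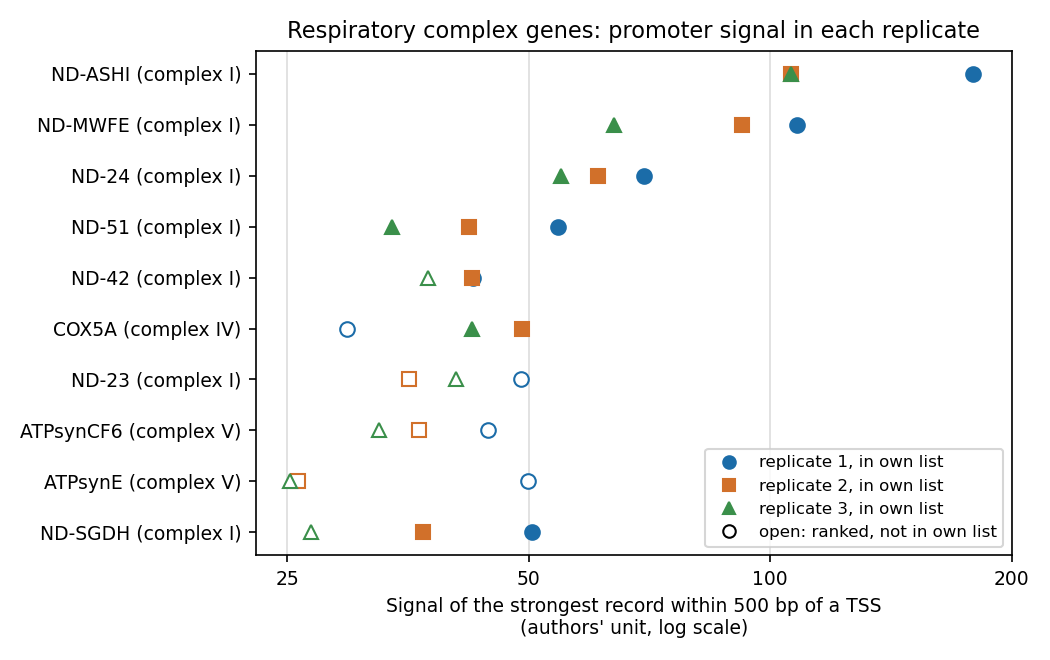
Signal of the strongest ranked record within 500 bp of a TSS (authors' unit, log scale) in each of 3 replicates for the 10 genes with a promoter peak in the main list or in a replicate's own list, ordered by main signal; ND-SGDH, which is not in the main list, is last. Filled symbols are in that replicate's own thresholded list; ND-ASHI is the highest of the 10 in each replicate, and ATPsynE has no filled symbol.

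The median main signal of the 9 genes was 132, against 145 for the strongest promoter peak of all genes with one, and their ranks ran from 339 to 2822. Of the strongest peaks at these genes, 7 of 9 had the commonest width of the main list, 380 bp, which 76.9% of its peaks shared with the summit at the centre. These 7 summits therefore stand at the midpoint of a window of fixed width. Whether that window was drawn around the summit is not given in the sources used here, so how exact these positions are is not known. ND-ASHI and ND-MWFE had narrower peaks of 225 and 185 bp.

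Each of the 9 summits also lay within 500 bp of a TSS of a neighbouring gene on the opposite strand. A pair was called divergent when a TSS of each lay within 1000 bp and pointed away from the other. Of the 88 genes, 44 had a divergent neighbour (50%), against 36.2% of all protein-coding genes. Promoter peaks in the main list were at 9 of these 44 (20.5%), against 25.2% of all divergent genes, and at 0 of the other 44, against 11.1% of all genes with no divergent neighbour. One summit between such a pair gives a peak to each gene, so a higher share at divergent promoters is partly built in. With the most upstream TSS of each gene alone, 37 of the 88 were divergent and held 6 of the 9 peaks, and ND-ASHI, ND-MWFE and COX5A then counted as not divergent.

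The neighbours have unlike roles. ND-ASHI is paired with Fum1, the citrate cycle enzyme fumarase, and ND-42 with Cchl, a cytochrome c haem lyase, so both genes of these pairs act in mitochondria. ND-23 is paired with spn-E, an RNA helicase of the germline piRNA pathway, ND-24 with corolla, a component of the synaptonemal complex, and COX5A with glo, an RNA-binding protein that represses nanos translation. ND-MWFE is paired with TppII, a peptidase, ATPsynCF6 with Sec13, a coat and nuclear pore protein, ATPsynE with Afti and ND-51 with CG13994.

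In the main list the summit was nearer to the TSS of the respiratory gene in 5 pairs and nearer to the neighbour's in ND-42, ND-MWFE, COX5A and ATPsynCF6. In the own lists the nearer gene was another for 3 of them: Fum1 for the ND-ASHI summit of replicate 3, CG13994 for the ND-51 summit of replicate 2, and ND-42 itself in replicate 2. For ND-MWFE the summit was 200 bp upstream of its TSS and 21 bp upstream of that of TppII, and it lay in an intron of TppII. For ND-ASHI it was 238 bp upstream of its TSS and 284 bp upstream of the nearest TSS of Fum1, and it lay in an intron of Fum1, which has a further TSS. The summits of ND-24 and COX5A lay 95 and 101 bp inside the transcribed region, in an intron of each gene. The other 5 were intergenic, at 86 bp (ND-51), 118 bp (ND-42), 115 bp (ND-23), 137 bp (ATPsynCF6) and 8 bp (ATPsynE) upstream of the gene's TSS. Counting a summit only for the gene with the nearest TSS left 5 of the 88 genes with a peak in the main list, against 12.9% of all protein-coding genes.

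**Figure D3:**
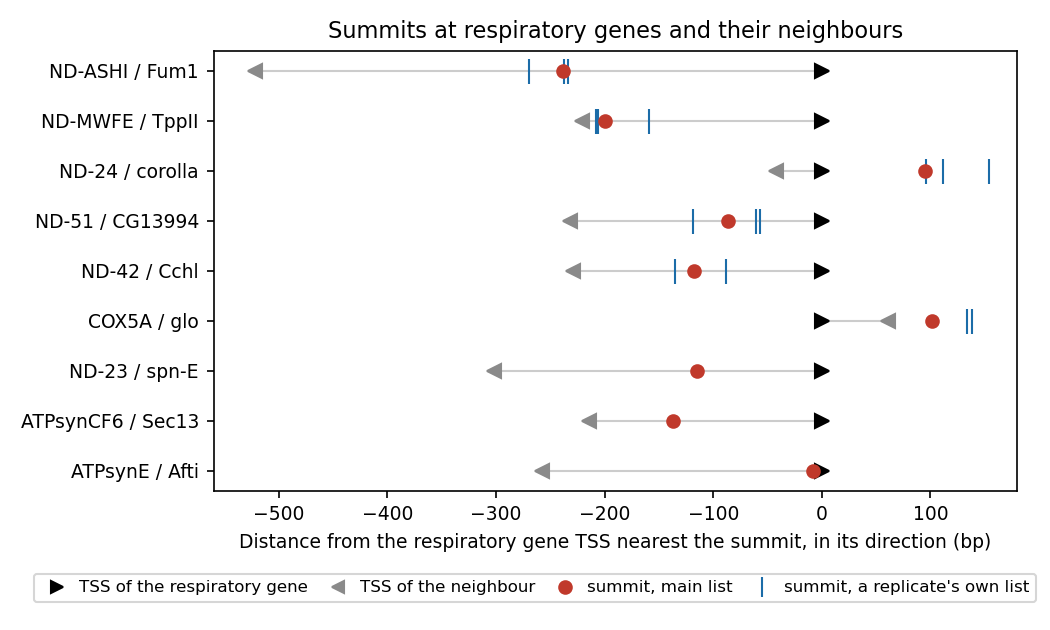
Position of the strongest main summit (red points), of the summits in replicates' own lists (blue ticks) and of the neighbour's TSS (grey triangles), in bp from the respiratory gene's TSS nearest the main summit, negative upstream, for 9 pairs ordered by main signal. The ND-MWFE summit is 21 bp from the TSS of TppII, and ND-23, ATPsynCF6 and ATPsynE have no own-list summit.

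The replicates' ranked lists give a value for most genes below the threshold. A record stood within 500 bp of a TSS in all 3 of these lists at 52 of the 88 genes (59.1%), against 49.1% of all protein-coding genes, and in none at 11 (12.5%), against 15.7%. The median percentile of the set was 59.3, 54.5 and 55.2 in replicates 1, 2 and 3 (56.3 ± 2.60, SD, n = 3), against 50 for all genes by construction. At the strong end the order turned: 3.41% of the set stood above percentile 90 in all 3 replicates, against 7.20% of all genes. These differences between the set and all genes were not tested.

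Above percentile 75 in all 3 replicates stood 12 of the 88 genes (13.6%, against 15.2% of all genes). They were the 9 genes of the main list, ND-SGDH, COX6B and ATPsynC. COX6B, an intermembrane-space subunit of complex IV that was picked out after its values were seen, had signals of 24.3, 26.7 and 22.8 in replicates 1, 2 and 3 and global IDR values of 0.0107 to 0.0156 in the replicate pairs, just short of the authors' threshold, at which scores are 830 or more. Across the 88 genes the signals of replicates correlated with a Spearman's rho of 0.602 to 0.734 over 3 pairs, against 0.678 to 0.745 across all protein-coding genes. These values are across genes, which are not independent replicates.

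ATPsynC and ND-15, also picked out after their values were seen, had scores past the threshold in series-level ranked lists but no record in the thresholded ones. ATPsynC encodes the subunit of the rotating c-ring of ATP synthase, and its record (chr3R:31219325-31219704, summit 44 bp inside the transcribed region) had a signal of 80.9 and a global IDR of 0.00395 where replicates 1 and 3 were compared. It was past the threshold in all 4 series-level ranked lists. ND-15, a complex I subunit, had a record of 75.6 (chr2L:154864-155243) with a global IDR of 0.00211 for replicates 1 and 2. The thresholded main list leaves out 125 ranked records with such scores, at 57 protein-coding genes of which ATPsynC alone belongs to this set, and the reason is not given in the sources used here. ATPsynC has no divergent neighbour, so with its record included the statement that every promoter peak of the set is at a divergent promoter does not hold.

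Complexes II and III had no promoter peak in any of the 7 lists. The highest gene of complex II by median percentile was SdhC, a membrane anchor that holds haem, with ranked signals of 31.5, 16.8 and 12.2 in replicates 1, 2 and 3. SdhA, the flavoprotein that oxidises succinate, had 12.3, 13.4 and 17.1, and its nearest main summit was 899 bp upstream of a TSS. In complex III UQCR-14, an accessory subunit, was highest with 26.0, 12.9 and 19.8. The highest signal at any gene of these complexes was 31.5 in replicate 1, 26.2 in replicate 2 and 28.6 in replicate 3. The lowest own-list peak of the set in the same replicate had 42.6 (ND-42), 36.9 (ND-SGDH) and 33.8 (ND-51), above those values each time. Own-list peaks had passed a threshold that no record at complexes II and III had, so this order is largely built in. Without L paralogs, the median percentiles were 61.4 ± 4.68 for complex II and 56.2 ± 1.48 for complex III, and 63.7 ± 1.92, 60.5 ± 10.7 and 69.1 ± 2.52 for complexes I, IV and V (SD, n = 3).

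Apart from SdhA, the genes with a main summit just beyond 500 bp were ND-PDSW of complex I, at 598 bp upstream, and ATPsynD, a peripheral stalk subunit, at 869 bp upstream. Where replicates 2 and 3 were compared, ND-PDSW and ATPsynbeta, the catalytic subunit of ATP synthase, had promoter peaks. The ND-PDSW call rested on a weak record (chr2L:3465574-3465953, summit 393 bp upstream) with a signal of 22.3 at rank 3981 and a global IDR of 0.00209, 205 bp from a record of 97.7 in that list. Its strongest pooled record within 500 bp had a signal of 31.0 and an IDR of 0.856 in that pair. ATPsynbeta had ranked signals of 21.0, 24.8 and 25.9 in replicates 1, 2 and 3 and a global IDR of 0.00875 in that pair, but 0.0251 and 0.0292 in the others. COX7B and ND-MNLL had a promoter peak in the pooled list but in neither the main list nor an own list. Of the 88 genes, 31 had no main summit within 10000 bp and 6 none within 100000 bp. The same counts over all protein-coding genes are not given here, so these numbers do not set the genes apart from others. Among genes without a main promoter peak, the set was not farther from summits than protein-coding genes in general. The median distance to the nearest main summit was 7191 bp for its genes without a main promoter peak, against 10888.5 bp for all such protein-coding genes. UQCR-11 and ND-AGGG, on 3L, were the farthest, at 2241794 and 2097339 bp.

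L paralogs and main genes stood apart in percentile. None of the 20 L paralogs had a promoter peak in any of the 7 lists. In the main list 9 of the 68 main genes (13.2%) had one, against 16.2% of all protein-coding genes. All 9 have a divergent neighbour, as do 3 L paralogs. Among genes with no such neighbour, 0 of 27 main genes and 0 of 17 L paralogs had a main peak, so these counts do not separate them. The median percentile of the L paralogs was 22.6, 17.3 and 16.3 in replicates 1, 2 and 3 (18.7 ± 3.38), against 63.5, 58.2 and 64.1 for the main genes (61.9 ± 3.22, SD, n = 3 each), so the ranges over replicates do not overlap. No record stood in any replicate's ranked list at 8 of the 20 L paralogs, against 3 of the 68 main genes, which were ND-AGGG, COX6AL2 and COX6CL. A percentile of 15 to 17.3 means no record in that replicate, as for the L paralog medians of replicates 2 and 3. COX6AL2 and COX6CL end in L as well, as do COX6AL and ATPsynepsilonL, but no gene of the set carries their base name. These 4 count as main genes here. With them counted as L paralogs instead, the gap between the groups was 46.0 percentile points, against 43.2.

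Of the L paralogs, 15% had a divergent neighbour, against 60.3% of the main genes. Within genes with no divergent neighbour the median percentile was 16.2 ± 1.13 for 17 L paralogs and 53.2 ± 4.99 for 27 main genes (SD, n = 3 each), against 41.0 ± 1.12 for all such genes. The L paralogs with the highest median percentiles were UQCR-6.4L, with signals of 9.98, 16.3 and 28.0 in replicates 1, 2 and 3, and COX5BL, with 20.8, 15.5 and 13.1, both picked out after their values were seen. The lowest genes of each complex had no record in 2 or all 3 replicates and included the L paralogs ND-24L, ND-51L1, SdhBL, SdhCL, UQCR-14L, COX4L and ATPsynGL. Main genes at that level were ND-AGGG and ND-MLRQ of complex I, UQCR-11 of complex III and, by the rule used here, COX6AL2 and COX6CL of complex IV.

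**Figure D4:**
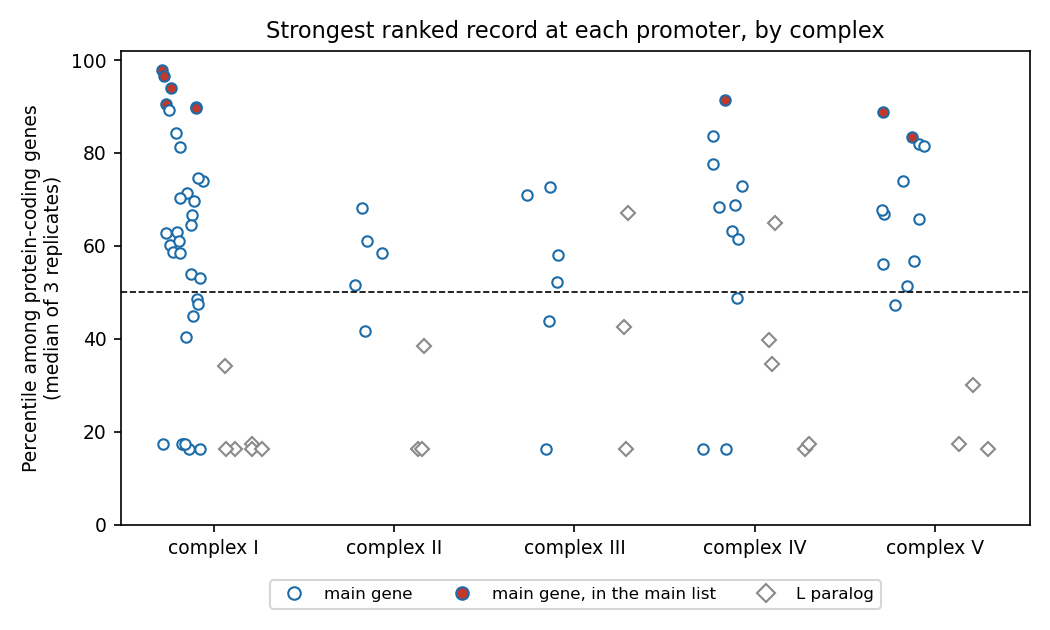
Percentile of each of the 88 genes among all protein-coding genes by the signal of its strongest ranked record within 500 bp of a TSS (median of 3 replicates), by complex; circles are main genes, red where in the main list, and diamonds are L paralogs. The dashed line at 50 is the median of all genes; values of about 16 to 17 mark genes without a record in at least 2 replicates.

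The 44 divergent genes of the set had a median percentile of 68.3 ± 0.474, with 67.7 to 68.6 over replicates, against 65.4 ± 0.510 and 64.8 to 65.7 for all divergent genes, a difference that was not tested, and the other 44 had 40.4 ± 5.55, against 41.0 ± 1.12 for all genes with no divergent neighbour (SD, n = 3 each). Among nuclear genes for mitochondrial ribosomal proteins, chosen as the most alike group, 17 of 73 had a main peak (23.3%) and the median percentile was 64.4 ± 2.12. Of these 73, 58 had a divergent neighbour. Set beside the 44 divergent genes of the respiratory set, with 20.5% and 68.3 ± 0.474, these 58 had a main peak at 16 (27.6%) and a median percentile of 69.8 ± 2.43 (SD, n = 3 each). Of all 92 cytoplasmic ribosomal protein genes, 57 had a main peak (62.0%) and the median percentile was 85.1 ± 0.339. Of the 55 of them with a divergent neighbour, 37 had one (67.3%), with a median percentile of 86.4 ± 0.792 (SD, n = 3 each).

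A list of other respiratory and mitochondrial genes was counted in the same way. Of 44 such genes, 8 had a main promoter peak (18.2%, near the 16.2% of all genes). CIA30, an assembly factor of complex I, had the strongest at 1323 and rank 13, but its summit was nearer to CG7601. Of the citrate cycle genes 4 of 11 had one: Idh3g (616), Fum1 (395, the summit shared with ND-ASHI), Ogdh (162) and Idh3b (86.7). Cyt-c-d, the second cytochrome c gene of the fly, had 556, with CG31808 nearer to the summit. Cox17, a copper chaperone of complex IV, had 156 and mtSSB, which binds single-stranded mitochondrial DNA, had 108. The genes for carriers and for the regulators ewg, srl and Ets97D had none in the main list. CIA30, Idh3g, Fum1 and Cyt-c-d were in all 3 own lists. Among 4 subunit genes whose symbols fall outside the rule and that were added after the data were seen (blw, sun, levy and cype), blw, the alpha subunit of ATP synthase, had a main peak of 217 at rank 988. It was also in the own lists of replicates 1 and 2, unlike any complex V gene chosen by the rule. The genes sun, levy and cype were in neither the main list nor an own list.

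Promoters of the set were searched for core promoter and factor words and for AAATAT, which earlier results on these peaks had singled out, in the stretch from 250 bases before to 50 after the RefSeq gene start, on both strands. AAATAT was in 71.6% of the 88 promoters, against 53.6% of 13921 promoters of all genes, and the TATA box word TATAAA in 55.7%, against 45.8%. The median GC was 34.2% against 38.0%, and its part in these shares was not tested. The core of motif 1 (GGTCACAC), a core promoter element of fly housekeeping genes, was in 18.2% against 7.71%, and the E-box CAGCTG in 23.9% against 17.7%. The DNA replication-related element (TATCGATA) was in 10.2% against 9.37%, the NRG element (TTACGTAA, TTATATAA, TTATGTAA or TTACATAA) in 6.82% against 5.19%, and the ETS core (CCGGAA) in 4.55% against 6.77%. TTATATAA can share bases with TATAAA. In a window of 100 bp to either side of the Ensembl TSS the NRG element was in 10.2% of the 88 genes, against 2.32% of all genes, so its gap from all genes depends on the window. In that window it was at 0 of the 9 genes with a main peak and at 9 of the other 79. L paralogs held motif 1 in 5% and the E-box in 10% of 20 promoters, and no NRG or DNA replication-related element.

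Within 100 bp of the 9 main summits, AAATAT and TATAAA were each found at 6, against 49.8% and 35.9% of 2014 promoter peaks of protein-coding genes. The E-box was at ATPsynCF6 and ND-51 and the NRG element at ND-42. Motif 1, the DNA replication-related element and the ETS core were at none of the 9 and at 2.38%, 3.33% and 5.26% of all promoter peaks. The median GC of these windows was 31.3%, against 34.8% at all promoter peaks, and ran from 19.9% at ND-23 to 42.3% at ND-ASHI.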

How the data were processed

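ChIP-seq peak lists of 3 biological replicates on assembly dm6, per the labels, were analysed. Each list is from the IDR procedure, per the names of the deposited files. Which aligner and which peak caller were used is not given in the sources used here, and library depth is unknown. The deposited signal of a peak is on the authors' scale, which is not stated, and was used only within a list. The deposited score is scaled from the global IDR and was at least 830 in the thresholded lists. The authors' ranked lists also give −log10 of the global IDR. The replicates compared in each series list were found by matching its records to the replicates' ranked lists, since the labels do not say. Summits are the peak start plus the offset, with 1 record per summit.

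Genes and TSSs came from Ensembl BDGP6.54. Sequence was read from RefSeq's version of this assembly, and no gene or peak ended beyond its arm. Promoters were cut from it at RefSeq gene starts, because no ready promoter table was used, and all 88 genes matched. Counts, medians and percentiles were computed in Python 3.11.15 with NumPy 2.4.6, and no significance test was made, since there was 1 group. The promoter call was tested on simulated data, where 200 of 200 planted summits were found. Named genes were those with a promoter peak in the main list or an own list, those with a main summit at 500 to 1000 bp, the highest and lowest of each complex, the 7 core complex I genes and other listed genes with a main peak. Members, lists and words were chosen with earlier results of these data known. Of 48 listed other genes, 45 were found and Sdhaf3 was already in the set. Alternatives tried were the other lists, IDR of 0.001, windows of 250 and 1000 bp, TSS choice, nearest gene, peak cover, merged summits, no L paralogs and each replicate left out.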

Additional observations from a re-analysis of the deposited data

How the results depend on the processing

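Of 75 alternative values for 17 results, 65 counted as unchanged. For counts, signals and percentiles the rule was within 1.5 times the count or within the spread between replicates of the reported value. For shares of promoters with a word it was within the confidence interval of the reported share, such as 3.16% to 14.1% for the NRG element. By this rule the NRG element counted as unchanged, although the share of all genes went from 5.19% to 2.32%. Counting each summit for the nearest gene alone gave 5 of 88 genes in the main list, against 12.9% of all genes, and 3.33 per own list. Taking ranked pooled records at the score threshold gave 14 genes in all (15.9%, against 19.7% of all genes), 2 in complex IV and a median signal of 114. At a global IDR of 0.001 the set had 7 of 88 genes, against 10.3% of all genes, with 0 in complex IV and 1 in complex V. Within 1000 bp it had 12 of 88, against 19.6% of all genes, with 1 in complex II. Each of these values follows from which records the alternative counts. In windows of 100 bp to either side of the Ensembl TSS, AAATAT was in 54.5% of the set against 34.1% of all genes, TATAAA in 29.5% against 29.1% and the NRG element in 10.2% against 2.32%, in shorter windows. The series lists that compared replicates 1 and 2 or replicates 2 and 3 gave 10 to 11 genes and a median signal of 127 to 129. Their peaks and signals come from the pooled libraries, so no replicate is left out of them. Leaving a replicate out of the own and ranked lists gave 5.50 to 6.50 genes per own list and a median percentile of 54.8 to 57.2. The gap between main genes and L paralogs of 43.2 percentile points was 40.9 to 44.4 without a replicate. No paired analysis was possible because there was 1 group. Depth was unknown, so no counting interval was given for signals.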
